A study of Mus musculus with 8 samples.

Results

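The radial glia genes examined here are Pax6, Sox2, Sox9, Fabp7, Nes, Vim, Tnc, Ptprz1 and Ednrb. They were picked by name: every probe set that the platform annotation assigns to one of these 9 symbols alone is a member, which gave 24 of the 45101 probe sets on the array. A probe set is a group of short probes against one transcript, and its summarised brightness is called its signal. RNA came from mouse telencephalon of Dlx1/2 mutants, dissected into basal ganglia (BG) and cortex (Ctx). The genotype is given as +/- or -/-, so there are 4 groups, BG +/-, BG -/-, Ctx +/- and Ctx -/-, with 2 arrays each and 8 in all. Every group carries a mutant allele of Dlx1/2, and no wild-type group was analysed here. Age, strain and sex are not given in the labels. The sample titles also name blood and adrenal medulla as the source, while the description gives basal ganglia or cortex. No label names the animals, pools or litters behind a group's 2 arrays. The p-values therefore measure array-to-array spread, part or all of which may be technical.

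Radial glia are the neural stem cells of the embryonic forebrain. Their cell bodies line the ventricle and a long fibre reaches the brain surface, along which newborn neurons migrate. They divide to renew themselves and to give intermediate progenitors and neurons, and later astrocytes and oligodendrocytes. In the ventral telencephalon, Dlx1 and Dlx2, homeobox transcription factors, are switched on as radial glia give rise to more committed progenitors. The members cover several roles in these cells. Pax6, Sox2 and Sox9 are transcription factors of the stem cell state, Nes and Vim form intermediate filaments, and Fabp7 (brain lipid binding protein) carries fatty acids. Tnc (tenascin C) is an extracellular matrix protein, Ptprz1 a receptor-type phosphatase that binds pleiotrophin, contactin and tenascins, and Ednrb the endothelin B receptor.

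The arrays had been brought to a common level, with trimmed means of 150.001 on the lowest and the highest array. The table holds no detection calls, and no signal is listed at 0. The targeted genes were lower in the -/- arrays: Dlx1 read 1232 and 1237 on the BG +/- arrays against 3.67 and 15.5 on the BG -/- arrays, and in the cortex 138 and 137 against 2.42 and 1.74. Pearson correlations across probe sets were 0.971 to 0.983 within groups and reached 0.976 between them; for Ctx +/- replicate 3 they were 0.975 and 0.976 with the Ctx -/- arrays and 0.971 with its own partner. Xist, which marks female cells, read 34.2 to 67.5 on the +/- arrays and 2340 to 2519 on the -/- arrays. Sex and genotype therefore cannot be told apart in any comparison of genotypes below. Of the adrenal medulla markers, Th was at 2.90 to 52.2 over the 8 arrays, and Phox2a lay within that range. Dbh was at 27.2 to 96.8, Pnmt at 32.9 to 97.2, Chga at 162 to 261 and Chgb at 267 to 454. Whether these signals come from adrenal medulla cells was not tested. The embryonic globin Hbb-y of red blood cells was at 1231 to 5819.

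The first comparison asked whether loss of the second allele goes with other levels of radial glia genes in BG. Ednrb, Ptprz1 and Tnc were higher in BG -/-, by about 0.7 to 1.3 on the log2 scale, on 6 of their 8 probe sets. Pax6, Sox2, Sox9, Fabp7, Nes and Vim did not pass the test on any probe set. Signals were tested as log2(signal + 16) with limma over 31526 probe sets, and a difference passed at a Benjamini-Hochberg adjusted p under 0.05. Of the 24 member probe sets, 22 were tested and 2, one of Pax6 and one of Nes, lay below the filter on low signals. Of the 22, 6 were higher in BG -/-, none was lower and 16 did not pass. Over all probe sets tested, 9.74% passed, 7.50% higher and 2.23% lower. The median log2 difference was 0.21 over the 22 member probe sets and 0.01 over all. At an unadjusted p under 0.05 there were 8 of the 22, against 28.2% of all. In bulk tissue, more or fewer cells of a type cannot be told apart from more or less RNA per cell. Since the genes were listed with results of these arrays known, these counts describe the list and are no test of it.

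Ednrb is a receptor whose endothelin signals also act on astrocytes and blood vessels. On probe set 1437347_at its signal was 438 and 452 on the BG +/- arrays and 972 and 948 on the BG -/- arrays. In the cortex it was 253 on both +/- arrays and 270 and 239 on the -/- arrays. Both BG -/- arrays lay above all others, both BG +/- arrays came next, and the cortical genotypes overlapped. The mean signal in BG -/- was 2.16 times that in BG +/-, a log2 difference of 1.08 ± 0.12 (SE; n = 2 arrays per group; limma adjusted p = 0.00667).

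The other Ednrb probe sets did not all give the same call. Probe set 1426314_at was at 128 and 158 in BG +/- against 307 and 268 in BG -/-, a log2 difference of 0.94 ± 0.17 (limma adjusted p = 0.0239). In the cortex it was at 127 and 95.2 in +/- against 99.7 and 98.2 in -/-. Probe set 1423594_a_at was at 127 and 126 in BG +/- against 162 and 134 in BG -/-, which did not pass, at 0.20 ± 0.25 with a 95% confidence interval from -0.39 to 0.79. Its BG arrays all lay above its cortical arrays, which were at 74.3 and 54.6 in +/- against 82.7 and 44.6 in -/-.

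Ptprz1, which is known from radial glia and from oligodendrocyte precursors, was higher in BG -/- on all 3 of its probe sets. Probe set 1452284_at was at 1311 on both BG +/- arrays and at 2118 and 2308 in BG -/-, a log2 difference of 0.75 ± 0.13 (limma adjusted p = 0.0196). Its cortical arrays were at 2385 and 2040 in +/- against 2148 and 2095 in -/-. BG +/- was thus the group that stood apart, below the other 3 groups, whose arrays overlapped.

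Probe set 1427019_at of Ptprz1 also had BG +/- alone at the bottom, with 1082 and 1110 there. Its BG -/- arrays read 1945 and 1746, those of Ctx +/- 1752 and 2051, and those of Ctx -/- 2010 and 1900. Its BG difference was 0.74 ± 0.13 (limma adjusted p = 0.0225). Probe set 1418690_at did not: it was at 424 and 450 in BG +/- against 830 and 785 in BG -/-, and at 514 and 436 in Ctx +/- against 450 and 437 in Ctx -/-. Here BG -/- was the group apart, above all others, with a BG difference of 0.86 ± 0.13 (limma adjusted p = 0.0137).

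Tnc, a matrix glycoprotein of the stem cell niche, changed on 1 of 2 probe sets. On 1456344_at it was at 54.7 and 46.1 in BG +/- against 128 and 172 in BG -/-, and at 248 and 263 in Ctx +/- against 295 and 293 in Ctx -/-. The 4 groups did not overlap, and their order ran from BG +/- through BG -/- and Ctx +/- to Ctx -/-. The mean signal in BG -/- was 2.97 times that in BG +/-, a log2 difference of 1.31 ± 0.16 (limma adjusted p = 0.00876). On the brighter probe set 1416342_at Tnc was at 352 and 382 in BG +/- against 358 and 408 in BG -/-, which overlap, and the difference was 0.06 ± 0.13 with an interval from -0.25 to 0.36. The intervals of the 2 probe sets, 0.93 to 1.69 and -0.25 to 0.36, do not overlap. Which exons or transcript ends the probe sets of a gene detect is not given in the sources used here.

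**Figure D1:**
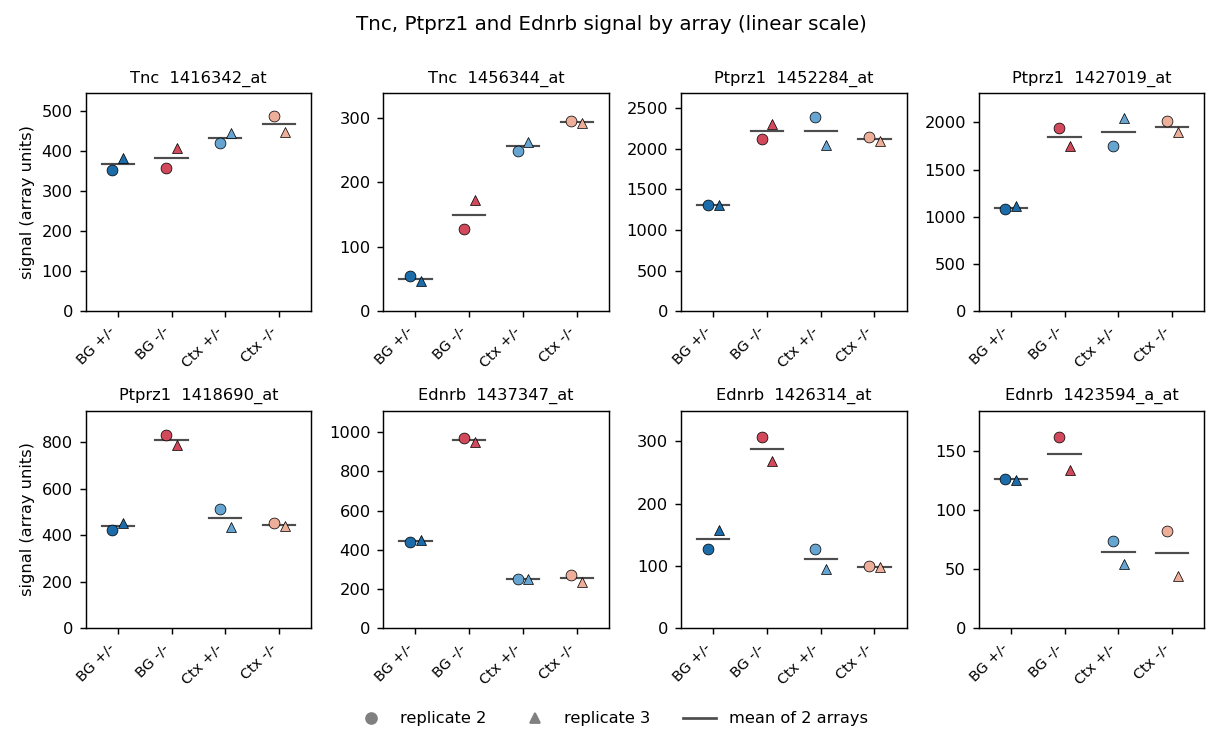
Signal on a linear scale (array units, axis from 0) of the Tnc, Ptprz1 and Ednrb probe sets on the 8 arrays, by group. Circles are replicate 2, triangles replicate 3 and bars the mean of both. Ednrb 1437347_at is at 972 and 948 in BG -/- and at 452 or less on every other array, and Ptprz1 1452284_at is at 1311 in BG +/- and at 2040 or more elsewhere.

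The upstream sequences of the 3 genes with a probe set higher in BG -/- are given to show what lies before their start sites. The mutated factors are homeodomain proteins, a family that binds cores of the letters TAAT. The table of RefSeq promoters (build GRCm38.p6) held a window for 8 of the 9 members, all except Sox9. Shown are the 250 bases before the start of the first listed window, 5′ to 3′ on the gene's strand, with each TAAT on either strand (ATTA where it lies on the other strand) in capitals.
Ednrb, chr14:103843702-103843951, minus strand: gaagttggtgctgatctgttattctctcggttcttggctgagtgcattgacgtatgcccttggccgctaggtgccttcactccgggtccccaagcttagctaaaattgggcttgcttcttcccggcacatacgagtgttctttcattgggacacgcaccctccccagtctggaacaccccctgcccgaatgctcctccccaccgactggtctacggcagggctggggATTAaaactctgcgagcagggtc
Ptprz1, chr6:22875252-22875501, plus strand: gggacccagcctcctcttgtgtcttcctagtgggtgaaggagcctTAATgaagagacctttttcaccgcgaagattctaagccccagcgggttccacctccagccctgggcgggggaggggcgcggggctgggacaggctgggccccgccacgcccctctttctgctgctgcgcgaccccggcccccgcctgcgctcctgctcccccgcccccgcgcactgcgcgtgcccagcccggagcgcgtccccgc
Tnc, chr4:64047016-64047265, minus strand: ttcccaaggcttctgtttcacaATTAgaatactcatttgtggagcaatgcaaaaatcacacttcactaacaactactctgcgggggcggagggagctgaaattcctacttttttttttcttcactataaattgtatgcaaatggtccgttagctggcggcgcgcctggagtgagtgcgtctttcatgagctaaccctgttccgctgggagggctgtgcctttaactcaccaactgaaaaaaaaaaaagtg
Each of the 3 windows holds 1 such core. The core was found in 54.9% of the 32851 windows of this length in the table, and in the first listed window of 5 of the 8 members. Among members that did not pass in BG, Pax6 and Vim hold it and Sox2, Fabp7 and Nes do not. A match of these letters is a description and not a binding site.

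The transcription factors did not pass in BG. Sox2, a factor that keeps progenitors undifferentiated, was at 3211 and 3249 in BG +/- against 2825 and 2736 in BG -/-. The groups did not overlap, and the log2 difference was -0.22 ± 0.15, with an interval from -0.57 to 0.14 (limma adjusted p = 0.395). Groups that do not overlap were common, at 60.0% of all probe sets tested and 19 of the 22 member probe sets. Sox2ot, a non-coding gene that overlaps Sox2, was at 214 and 246 in BG +/- against 396 and 381 in BG -/-, a difference of 0.72 ± 0.18 that did not pass (limma adjusted p = 0.0509). Which transcript of the overlapping pair each of these probe sets detects was not examined, so the source of each signal is not known.

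Pax6, a factor of dorsal and, at lower level, ventral radial glia, was at 184 and 189 in BG +/- against 214 and 153 in BG -/- on probe set 1419271_at. These arrays overlapped, and the difference was -0.04 ± 0.17, with an interval from -0.45 to 0.37. Its other tested probe sets were at 0.26 ± 0.18, -0.45 ± 0.29 and 0.80 ± 0.32, none of which passed. The last of these, 1425960_s_at, was at 3.25 and 3.62 in BG +/- against 32.4 and 7.50 in BG -/-, signals around the offset of 16. Pax6 and Vim lie on chromosome 2, as do Dlx1 and Dlx2.

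Sox9, a factor needed for stem cell maintenance and for the later switch to glia, had 3 probe sets that differed in sign. On 1424950_at it was at 272 and 223 in BG +/- against 192 and 217 in BG -/-, a difference of -0.25 ± 0.19. On 1451538_at it was at 83.7 and 79.2 against 102 and 94.7, a difference of 0.23 ± 0.13, and the dimmest, 1433889_at, was at 0.32 ± 0.38. None passed, and the intervals of all 3 include 0.

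The cytoskeletal and lipid binding members did not pass either. Fabp7 was at 10826 and 10470 in BG +/- against 10522 and 9373 in BG -/-, overlapping, with a difference of -0.10 ± 0.12 and an interval from -0.39 to 0.19. Vim, on 1438118_x_at, was at 5115 and 5230 in BG +/- against 4437 and 4431 in BG -/-, a difference of -0.22 ± 0.13. Its other probe sets, 1450641_at and 1456292_a_at, were at -0.19 ± 0.13 and -0.27 ± 0.16. All 3 of the Vim differences were negative, and each interval includes 0.

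Nes (nestin), the filament protein used as a general label of neural stem cells, gave opposite signs on its 2 tested probe sets. On 1449022_at it was at 272 and 226 in BG +/- against 302 and 333 in BG -/-, a difference of 0.34 ± 0.14 (limma adjusted p = 0.170). On 1418289_at it was at 121 and 103 against 79.9 and 94.0, a difference of -0.32 ± 0.20 (limma adjusted p = 0.360). The groups did not overlap on either, and neither passed.

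The BG calls rest on few arrays. Leaving out BG +/- replicate 2 or BG +/- replicate 3 left 2 of the 6 calls, those of Ednrb 1437347_at and Tnc 1456344_at. Leaving out BG -/- replicate 2 left 1, that of Tnc 1456344_at, and leaving out BG -/- replicate 3 left 0. The number of all probe sets passing went from 3070 to 475, 701, 138 and 113 in these 4 fits. The 6 differences stayed positive in each of these fits, in which the lone array of a group is assumed to vary like the others.

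**Figure D2:**
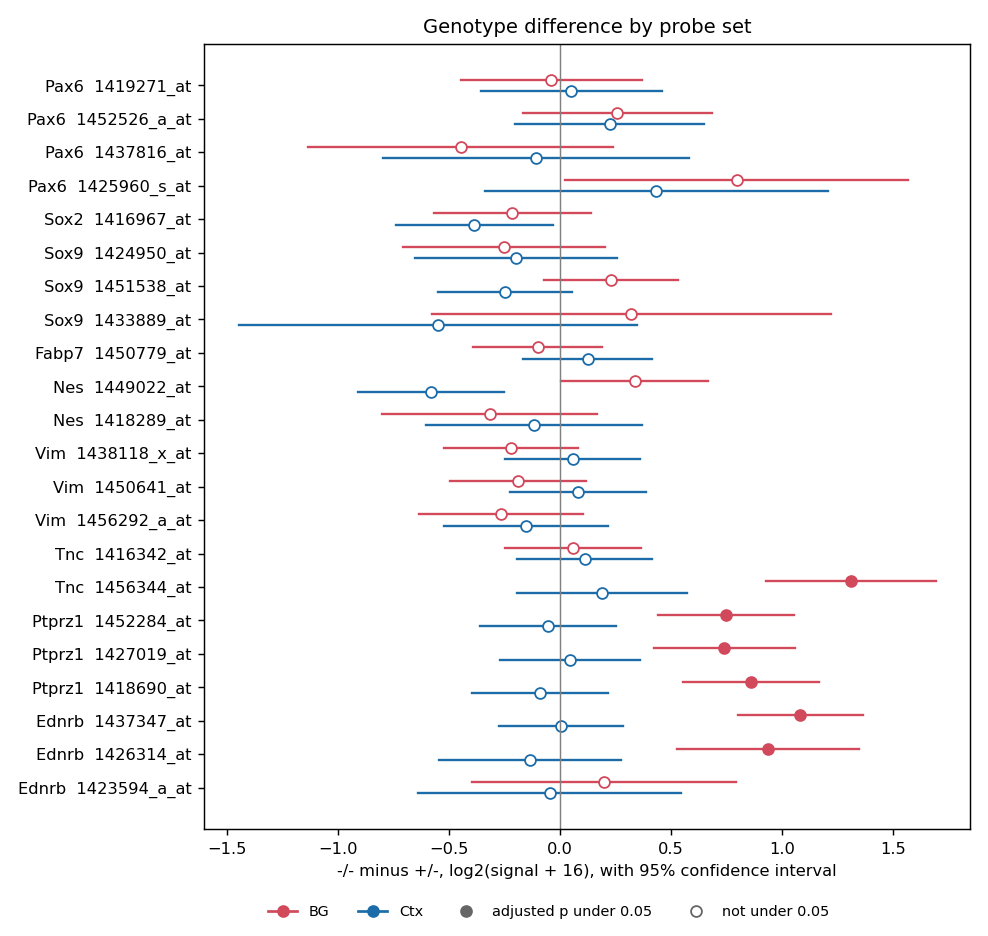
Difference between the genotypes, -/- minus +/- on the log2(signal + 16) scale, for the 22 tested member probe sets in BG (red) and Ctx (blue), with 95% confidence intervals. Filled points passed an adjusted p of 0.05 in limma. The 6 filled points are those of Tnc 1456344_at, all 3 Ptprz1 probe sets and 2 of the 3 Ednrb probe sets, all in BG, and no point of Ctx is filled.

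In the cortex, no member probe set passed between the genotypes. Of the 22 tested, 0 were higher and 0 lower in Ctx -/- (limma), and 2 were under an unadjusted p of 0.05. Over all probe sets 0.225% passed, 0.0476% higher and 0.178% lower, and 9.67% were under that unadjusted p, so few calls were made in this tissue at all. The median log2 difference was -0.05 over the member probe sets and -0.01 over all. The 2 with the small unadjusted p were Nes 1449022_at and Sox2. Nes was at 370 and 410 in Ctx +/- against 252 and 258 in Ctx -/-, a difference of -0.58 ± 0.14 (limma adjusted p = 0.284). Sox2 was at 1499 and 1152 in Ctx +/- and at 1002 on both Ctx -/- arrays, a difference of -0.39 ± 0.15 (limma adjusted p = 0.477). Arrays of both genotypes were separate for these, and for 8 of the 22 in all, against 39.4% of all probe sets.

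The 3 genes with a probe set higher in BG -/- were also read in the cortex. There the difference was 0.0037 ± 0.12 for Ednrb 1437347_at (interval -0.28 to 0.28) and -0.06 ± 0.13 for Ptprz1 1452284_at (-0.36 to 0.25). For Tnc 1456344_at it was 0.19 ± 0.16 (-0.19 to 0.57). The intervals of the other Ednrb probe sets ran from -0.55 to 0.28 for 1426314_at and from -0.64 to 0.55 for 1423594_a_at. Those of the other Ptprz1 probe sets ran from -0.27 to 0.36 for 1427019_at and from -0.40 to 0.22 for 1418690_at. That of Tnc 1416342_at ran from -0.20 to 0.42. Fabp7, at 7548 and 8178 in Ctx +/- and 8436 and 8705 in Ctx -/-, differed by 0.13 ± 0.12, and Pax6 1419271_at, at 447 and 490 against 515 and 459, by 0.05 ± 0.17. None of these passed, which does not show that the genotypes are alike.

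The cortical genotypes also differed in choroid plexus markers. Ttr, the main secreted protein of that tissue, was at 11634 and 13605 in Ctx +/- against 1.11 and 0.70 in Ctx -/-, and the 8 markers summed to 12157 to 14008 against 50.1 to 131. Of 7 markers tested, 2 were lower in Ctx -/-, namely Ttr and Kcne2, and 3 passed in the test of the difference between regions described next, Ttr, Kcne2 and the homeobox gene Otx2 (limma). Of 9 microglia markers tested in Ctx none passed, 8 values were positive, and their sum was 528 to 546 in +/- against 664 to 775 in -/-. The part of these cells in the values of the members was not tested.

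The next test was of the genotype effect itself, and whether it differs between the regions, as the log2 difference in BG minus that in Ctx. No member probe set passed, and 8 of 22 were under an unadjusted p of 0.05 (limma). Over all probe sets 0.574% passed, 0.517% with a positive and 0.0571% with a negative value, and 17.7% were under that unadjusted p. Positive values made up 90.1% of these calls, and 67.9% after median centring of the arrays, under which the median of all probe sets went from 0.05 to -0.11. The value nearest to the threshold was that of Ednrb 1437347_at at 1.08 ± 0.17, with an interval from 0.68 to 1.48 (limma adjusted p = 0.0542). Ptprz1 1418690_at followed at 0.95 ± 0.18 (adjusted p = 0.0781), then Tnc 1456344_at at 1.12 ± 0.23 (adjusted p = 0.0847) and Nes 1449022_at at 0.92 ± 0.20 (adjusted p = 0.0938). For Nes 1449022_at, the sign was positive in BG and negative in Ctx, and neither effect passed. The other probe sets of these 4 genes differed among themselves. Ednrb 1426314_at was at 1.07 ± 0.24 and 1423594_a_at at 0.24 ± 0.35. Ptprz1 1452284_at was at 0.80 ± 0.18 and 1427019_at at 0.70 ± 0.19. Tnc 1416342_at was at -0.05 ± 0.18 and Nes 1418289_at at -0.20 ± 0.29. With an offset of 64 in place of 16, 5 member probe sets passed, those of Ednrb 1437347_at and 1426314_at, Ptprz1 1418690_at and 1452284_at and Nes 1449022_at. An effect that passed in BG and not in Ctx is therefore not shown to differ between the regions for Ednrb, Ptprz1 or Tnc at the threshold used.

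The regions themselves were then compared within each genotype, asking where each member is stronger. Sox2 and Ednrb were higher in BG, and Pax6, Tnc and Vim higher in Ctx, in both genotypes on at least 1 probe set. In +/-, 3 of 22 member probe sets were higher in BG, 8 lower and 11 did not pass, against 11.1% higher and 12.8% lower, 23.8% in all, over all probe sets. In -/-, 6 were higher, 4 lower and 12 did not pass, against 10.7% and 6.59%, 17.2% in all. BG and Ctx arrays were fully separate for 18 of the 22 in each genotype, against 62.5% of all probe sets in +/- and 67.9% in -/-. With each array centred on its median, 2 were higher and 9 lower in +/-, and 6 higher and 8 lower in -/-. The same centring took the share of higher calls among all calls from 46.4% to 31.6% in +/- and from 61.8% to 26.5% in -/-, and the median of all probe sets from 0.06 to -0.06 and from 0.08 to -0.21.

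Markers of other cell types also differed between the regions. In +/-, 6 of 9 microglia markers, 4 of 6 of oligodendrocyte precursors and 3 of 4 of red blood cells were higher in BG, and 5 of 7 of intermediate progenitors and 4 of 7 of choroid plexus were lower (limma). In -/-, the counts were 1 of 9, 4 of 6 and 3 of 4 higher for the first 3 lists. For intermediate progenitors 1 was higher and 4 lower, and for choroid plexus 1 was higher and 0 lower. Among all genes, each by its brightest probe set, 14.0% were higher and 10.7% lower in BG in +/-. In -/- these shares were 11.4% and 7.25%. Ttr was at 18.6 and 34.3 in BG +/-, far from its values in Ctx +/- given above. The part of these cells in the regional values was not tested.

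Sox2 had the same order in both genotypes, with all BG arrays between 2736 and 3249 and all Ctx arrays between 1002 and 1499. The difference, BG minus Ctx, was 1.29 ± 0.15 in +/- and 1.46 ± 0.15 in -/- (limma adjusted p = 0.00238 and 0.00186). Ednrb 1437347_at was 1.76 times higher in BG than in Ctx in +/-, a log2 difference of 0.78 ± 0.12, and 3.78 times higher in -/-, a log2 difference of 1.86 ± 0.12 (limma adjusted p = 0.00577 and 0.000385). The comparisons of the regions share arrays with the comparisons of the genotypes, so the larger value in -/- restates the rise of Ednrb in BG -/-. Of the other Ednrb probe sets, 1426314_at was at 0.33 ± 0.17 in +/- and 1.40 ± 0.17 in -/-. Probe set 1423594_a_at was at 0.83 ± 0.25 in +/- and 1.08 ± 0.25 in -/-. Both passed in -/- and neither in +/- (limma).

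Pax6 was higher in Ctx on its brightest probe set, with all Ctx arrays between 447 and 515 and all BG arrays between 153 and 214. The difference, BG minus Ctx, was -1.26 ± 0.17 in +/- and -1.35 ± 0.17 in -/- (limma adjusted p = 0.00412 and 0.00397). Probe set 1452526_a_at gave -1.11 ± 0.18 and -1.07 ± 0.18, and both passed. The dim probe set 1425960_s_at passed in +/- at -1.42 ± 0.32 and not in -/- at -1.05 ± 0.32. Probe set 1437816_at, at 22.4 to 55.4 over all arrays, did not separate the regions, at 0.31 ± 0.29 and -0.03 ± 0.29. Pax6os1, a non-coding gene that overlaps Pax6, was at 2.90 to 16.9 on the BG arrays and at 28.0 to 40.1 on the Ctx arrays.

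Tnc 1456344_at was lower in BG than in Ctx, with log2 differences of -2.04 ± 0.16 in +/- and -0.92 ± 0.16 in -/- (limma adjusted p = 0.000741 and 0.0127). On Tnc 1416342_at the differences were -0.23 ± 0.13 and -0.28 ± 0.13 and did not pass. Vim 1450641_at was at 3220 to 3843 in BG and 5376 to 6348 in Ctx, with differences of -0.63 ± 0.13 and -0.90 ± 0.13 that both passed, whereas Vim 1438118_x_at, at 0.0095 ± 0.13 and -0.27 ± 0.13, did not pass in either genotype. With arrays centred on their median, Vim 1438118_x_at and Tnc 1416342_at also passed as lower in BG in -/-.

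Ptprz1 depended on genotype and probe set. In +/-, 1452284_at and 1427019_at were lower in BG, at -0.74 ± 0.13 and -0.78 ± 0.13 (limma adjusted p = 0.00904 and 0.00854), and 1418690_at did not pass at -0.11 ± 0.13. In -/-, the first 2 did not pass, at 0.06 ± 0.13 and -0.08 ± 0.13, and 1418690_at was higher in BG at 0.84 ± 0.13 (limma adjusted p = 0.00799).

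For Fabp7, Nes and Sox9 the regional calls held in 1 genotype each. Fabp7 was higher in BG +/- than in Ctx +/- by 0.44 ± 0.12 (limma adjusted p = 0.0432), a call that was lost in 14 of 15 alternative settings, and did not pass in -/- at 0.21 ± 0.12. Nes 1449022_at was lower in BG +/- than in Ctx +/- at -0.62 ± 0.14 (limma adjusted p = 0.0215) and did not pass in -/- at 0.30 ± 0.14. Nes 1418289_at had the opposite sign in +/-, at 0.62 ± 0.20, and did not pass in either genotype. Sox9 passed on its dimmest probe set 1433889_at alone, in -/-, at 1.40 ± 0.38 (limma adjusted p = 0.0474), from signals of 34.8 and 42.8 in BG -/- and 1.19 and 8.88 in Ctx -/-. That call was lost in 10 of 15 alternative settings. The other Sox9 probe sets did not pass in either genotype. Without Ctx +/- replicate 3 there were 8 calls in +/-. Leaving out BG +/- replicate 3 took the calls in +/- from 11 to 7, and leaving out Ctx -/- replicate 3 took those in -/- from 10 to 6.

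**Figure D3:**
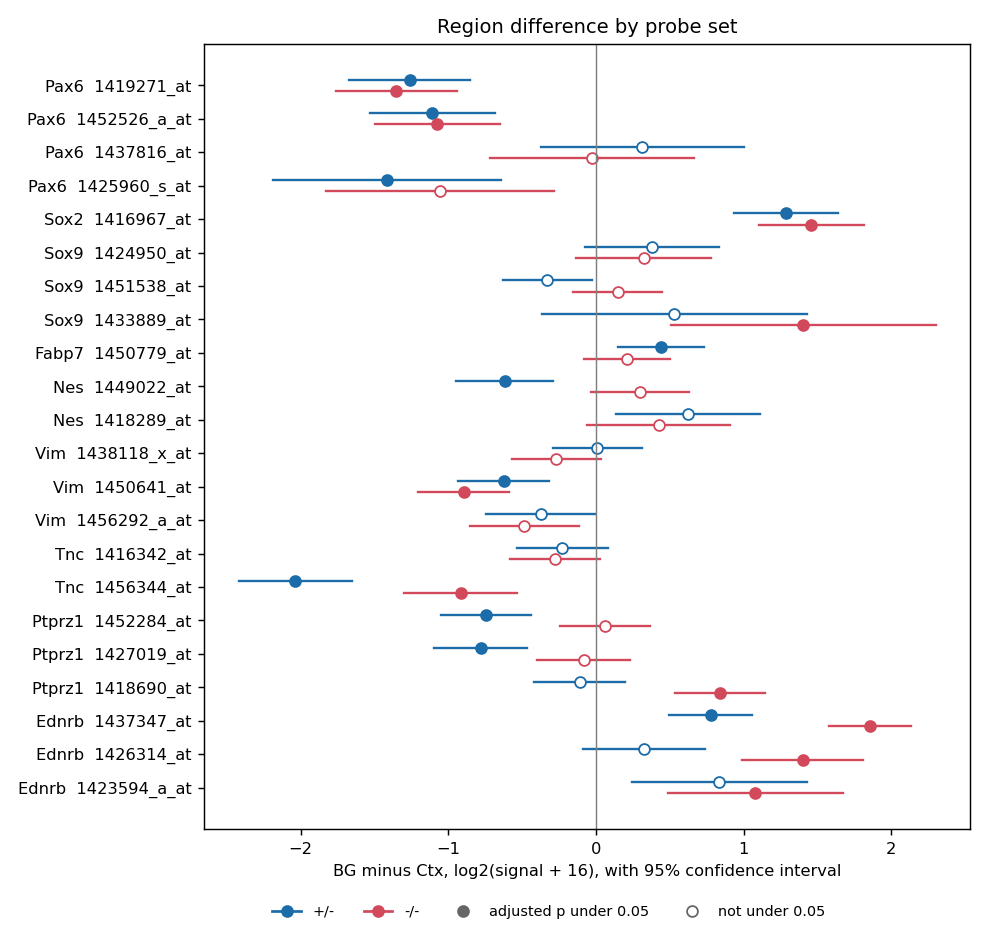
Difference between the regions, BG minus Ctx on the log2(signal + 16) scale, for the 22 tested member probe sets in +/- (blue) and -/- (red), with 95% confidence intervals. Filled points passed an adjusted p of 0.05 in limma. Sox2 is at 1.29 and 1.46, Pax6 1419271_at at -1.26 and -1.35, and Ednrb 1437347_at moves from 0.78 in +/- to 1.86 in -/-.

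**Figure D4:**
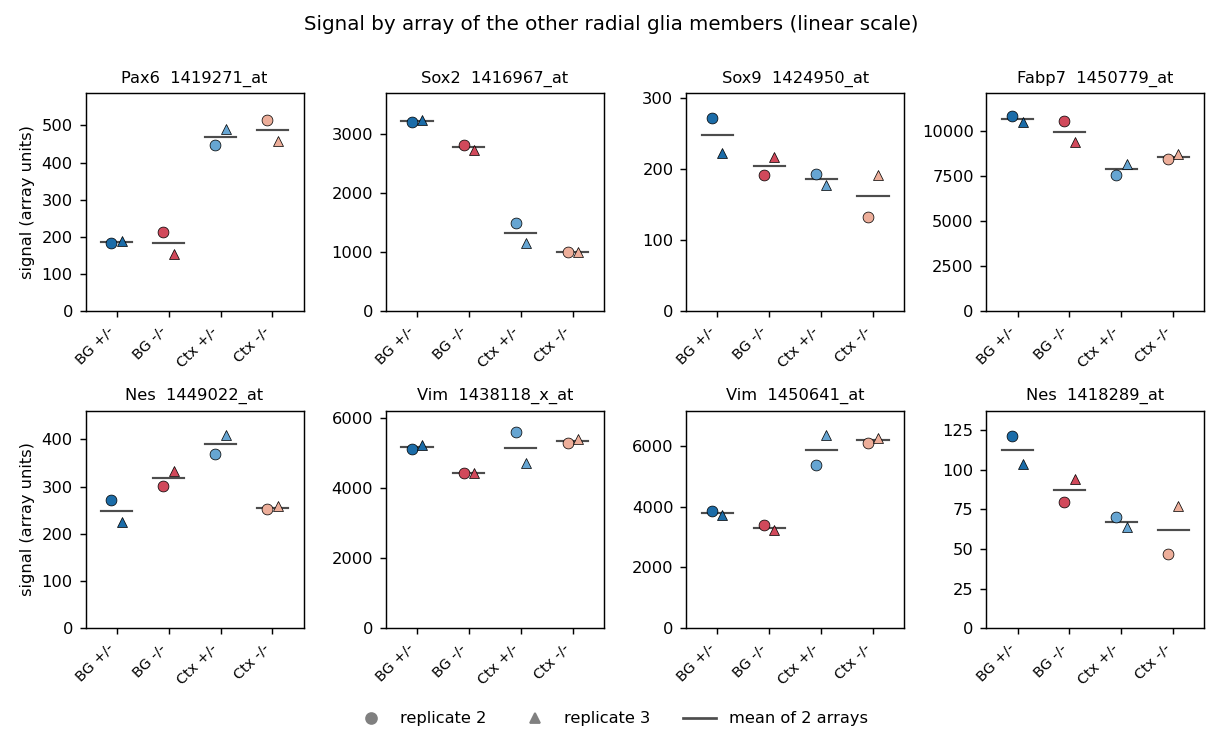
Signal on a linear scale (array units, axis from 0) of Pax6, Sox2, Sox9, Fabp7, Nes and Vim on the 8 arrays, by group: the brightest probe set of each gene and a further one of Vim and of Nes. Circles are replicate 2, triangles replicate 3 and bars the mean of both. The BG and Ctx arrays of Sox2, Pax6, Fabp7, Vim 1450641_at and Nes 1418289_at do not overlap.

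Other genes of the same cells and pathways were counted from lists, each gene by its brightest probe set. Over all 13627 genes so represented, 4.76% were higher and 3.05% lower in BG -/-, with a median of -0.08. Of 38 further radial glia and astroglial progenitor genes, 0 were higher and 0 lower in BG -/- (limma), with a median of 0.02. The glutamate transporter Slc1a3 was at 0.04 ± 0.13, the Notch targets Hes1 and Hes5 at -0.16 ± 0.14 and -0.36 ± 0.35, and Nfix, a nuclear factor I gene with the smallest adjusted p of the list (0.0603), at -0.46 ± 0.12. None passed in Ctx, where 0.0220% of all genes were higher and 0.183% lower. Of the same 38 genes, 6 were higher and 13 lower in BG than in Ctx in +/-, and 5 and 11 in -/-. Over all genes the shares were 14.0% and 10.7% in +/- and 11.4% and 7.25% in -/-.

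For the receptors, ligands and partners were counted in BG. Of 9 tested genes of the endothelin pathway, which supplies and relays the ligands of Ednrb, none passed. The ligand Edn3 was at 55.5 and 53.6 in BG +/- against 27.5 and 31.0 in BG -/-, a difference of -0.64 ± 0.28, and Plcb4, a phospholipase downstream of the receptor, was at 0.93 ± 0.29. Neither passed. Of 14 ligands and partners of Ptprz1, 1 was higher, the adhesion molecule Nrcam at 0.62 ± 0.12 (limma adjusted p = 0.0274). The growth factor ligands Ptn and Mdk were at 0.44 ± 0.16 and -0.52 ± 0.15 and the contactin Cntn1 at 0.49 ± 0.15, none of which passed.

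Of 16 tenascin receptors and matrix genes tested, 2 were higher and 1 lower in BG -/-. The proteoglycan Vcan, at 381 and 431 in BG +/- and 915 and 921 in BG -/-, was higher by 1.15 ± 0.13 (limma adjusted p = 0.00667). The integrin subunit Itga8 was higher by 0.78 ± 0.11 from signals of 17.6 and 18.6 to 41.1 and 43.7, and the syndecan Sdc1 was lower, at -1.03 ± 0.22 (limma adjusted p = 0.0132 and 0.0363). None of 8 SOX genes related to Sox2 and Sox9 and none of 10 intermediate filament genes passed. Of 4 lipid binding protein genes related to Fabp7, 1 was lower, the retinoic acid binding protein Crabp1 at -1.67 ± 0.14, from 426 and 462 to 133 and 123 (limma adjusted p = 0.00355). Crabp1 was also the only gene of that list to pass in the test of the difference between regions, at -1.73 (limma). In Ctx none of the genes of these lists passed.

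Since bulk tissue was measured, more or fewer cells of a type cannot be told apart from more or less RNA per cell. The summed signals of several marker lists also differed between the genotypes in BG. Oligodendrocyte precursors, which also express Ptprz1 and Tnc, had a summed signal of 947 to 1052 over 7 markers in BG +/- and of 1341 to 1448 in BG -/-. Of 6 markers tested none passed and 5 values were positive, with Pdgfra at 0.61 ± 0.16 and Olig1 at 0.46 ± 0.13. Cspg4 went the other way, at 36.1 and 21.7 in BG +/- against 8.32 and 23.8 in BG -/-. Astrocyte markers summed to 1432 to 1462 and 1666 to 1697 over 7 genes. Gfap, their defining filament, was at 24.4 to 39.9 on the BG arrays. None of 6 tested passed, and 4 values were positive. Fgfr3 was at 411 and 378 in BG +/- against 303 and 328 in BG -/-. Without the marker that differed most in mean signal, Olig1 and Gja1, the sums were 488 to 556 against 711 to 757 for the first list and 954 to 1035 against 1080 to 1118 for the second. The part of these cell types in the differences was not tested.

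Endothelial and pericyte markers, of cells that can also carry Ednrb, summed to 1306 to 1346 in BG +/- and 1440 to 1515 in BG -/- over 13 genes. Without the pericyte gene Rgs5 the sums were 1099 to 1111 and 986 to 1074. Of 12 tested, Rgs5 alone was higher, at 0.97 ± 0.12 (limma adjusted p = 0.00916), and the list median was -0.11. The endothelial genes Cldn5, the lowest of the list, and Kdr were at -0.43 ± 0.21 and -0.33 ± 0.28, and neither passed. Of the 12 values, 5 were positive. The endothelial gene Tek was at 35.3 and 35.5 in BG +/- against 47.3 and 39.1 in BG -/-. Neuron markers had a median difference of 0.03 over 8 tested. Dcx and Snap25 were higher, at 0.93 ± 0.13 and 0.81 ± 0.12, while Tubb3 and Stmn2 were at -0.45 ± 0.12 and -0.19 ± 0.11 and did not pass. Their summed signal was 18615 to 18732 in BG +/- against 20117 to 20635 in BG -/-, and without Dcx 16133 to 16189 against 15500 to 15642. Intermediate progenitor genes went both ways: of 7 tested, Elavl4 was higher at 0.68 ± 0.13, and Neurog1 and Neurog2 were lower at -0.92 ± 0.17 and -0.56 ± 0.13. Of 9 cell cycle genes, 3 were higher and 2 lower, with Cenpf at 0.78 ± 0.11 and Cdk1 at -0.87 ± 0.14. Red blood cell markers summed to 5951 to 6256 in BG +/- and 3118 to 3265 in BG -/-, and meningeal markers to 414 to 424 and 276 to 290. The part of any of these in the differences was not tested.

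**Figure D5:**
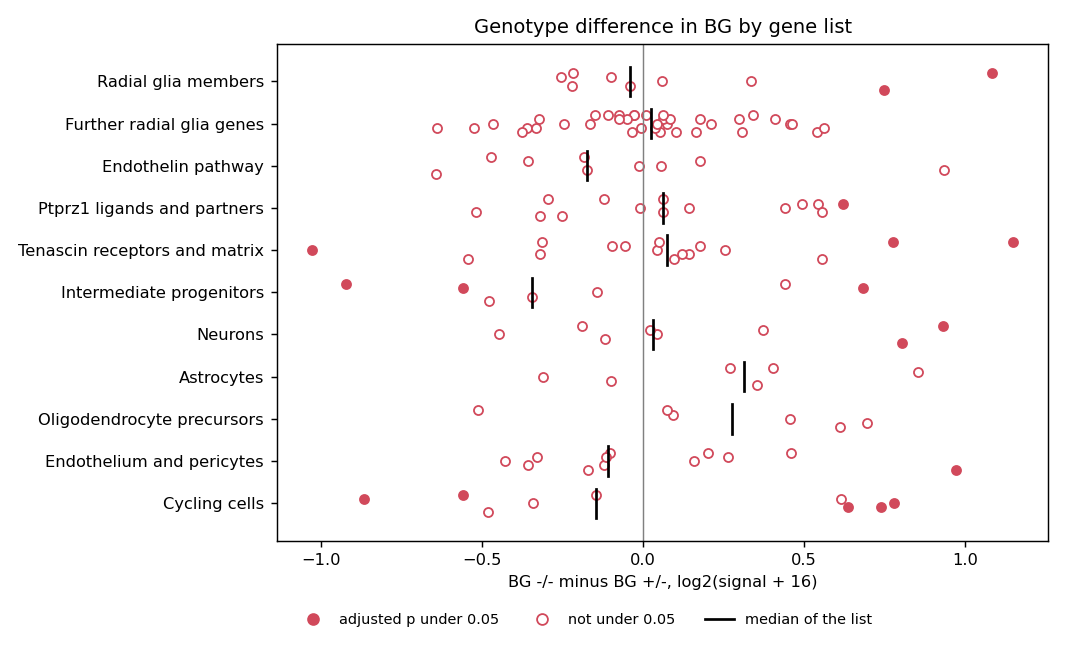
Difference between the genotypes in BG, -/- minus +/- on the log2(signal + 16) scale, for the tested genes of 11 lists, each gene by its brightest probe set. Filled points passed an adjusted p of 0.05 in limma and the black bars are the list medians. The filled points of the radial glia members are Ptprz1 at 0.75 and Ednrb at 1.08, and no point of the 38 further radial glia genes is filled.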

How the data were processed

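Total RNA of 8 mouse telencephalon samples was measured on oligonucleotide arrays. Each probe set has 1 deposited intensity per array, already summarised and linear. All arrays share one trimmed mean, so the authors had scaled them; the software is not given in the sources used here. Groups and replicate numbers (2 and 3) came from the sample titles.

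After 64 control probe sets were left out, signals were analysed as log2(signal + 16), which understates differences of dim probe sets. The dimmest 30% (mean log2 of the 8 arrays) were left out, which kept 31526 of 45037. The 4 group means were fitted in limma 3.58.1 (R 4.3.3) with lmFit and eBayes, with 4 residual and 2.76 prior degrees of freedom. Two-sided moderated tests were adjusted by Benjamini-Hochberg over all probe sets kept, and 0.05 was the threshold. The fit was tested on simulated data. The number of arrays limits the precision.

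All probe sets of the 9 members are accounted for in the comparison of genotypes in BG. In the other comparisons all those tested are counted, and only some are given by value. Other genes are represented by the single-gene probe set with the highest mean log2, and of each other list mainly the members that passed in BG or in the difference between regions, at most 4, are named; further values were chosen after they were seen. The members and lists were chosen with earlier results of these data known. Alternatives were other offsets, no filter, other scalings, fits of the compared groups alone, a replicate block and leaving out each array.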

Additional observations from a re-analysis of the deposited data

How the results depend on the processing

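The count of member probe sets passing in BG was 6 with offsets of 1 and 64, without a filter, with quantile normalization and with the replicate block, and 5 with arrays centred on their median. In a fit of the BG arrays alone it was 3, and it was 0 to 6 when single arrays were left out. In Ctx it was 0 under every alternative run. For the difference between the regions it was 0 except with an offset of 64, where 5 passed, and 0 throughout when single arrays were left out. For BG against Ctx it was 11 in +/-, 7 in a fit of these 4 arrays alone and 7 to 12 without single arrays, and in -/- it was 10, with 6 to 11 without single arrays. No member probe set that passed changed sign under any alternative run. The count of all probe sets ranged from 113 to 4969 in BG (3070), 19 to 146 in Ctx (71), 3 to 907 for the difference (181), 3466 to 9175 for the regions in +/- (7518) and 1896 to 7377 in -/- (5438). With arrays centred, the higher share of calls for the difference went from 90.1% to 67.9%. The deviations of replicate 2 from its group mean correlated at -0.0262 to 0.0218 between groups, so no common shift by replicate number was seen. This cannot tell whether arrays with the same number share animals or litters, which no label names. The replicate block gave 6, 0, 0, 11 and 9 member calls in the 5 comparisons, and 2002, 36, 4, 6639 and 4682 calls over all probe sets. Signal over background is unknown without detection calls, which limits what dim probe sets show.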

Other observations

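The genes whose pattern over the 4 group means was closest to that of the 2 members that passed in BG on their brightest probe set were looked up among 13626 genes, by the root mean square distance of centred log2 profiles. Nearest to Ednrb was Apoe, the main lipid carrier of brain glia, at a distance of 0.0464, with mean signals of 342 in BG +/- and 738 in BG -/- and of 191 and 208 in the same genotypes of Ctx. Tmem255a and Pdzph1 followed at 0.0715 and 0.0717. Nearest to Ptprz1 were Vps37a at 0.0271, Npat at 0.0325 and Arhgap12 at 0.0326. Vps37a, a subunit of an endosomal sorting complex, had mean signals of 105 in BG +/- and 195 in BG -/-, and of 189 and 188 in Ctx. The likeness is a description over 4 means.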
